A study of Mus musculus with 36 samples.

Results

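Of the 65955 transcript clusters with usable log2 signals on the Mouse Transcriptome Array, 25795 (39.11%) carry no gene symbol and are described here; 40160 carry one. A transcript cluster is the unit that the array stands for, usually a gene or a transcript, and the members were chosen only because the symbol column of the table is empty. RNA came from 36 single blastocysts of the cross B6C3F1 x CD1, each grown from 1 blastomere of a 2-cell embryo whose blastomeres had been separated. All embryos reached the 2-cell stage in KSOM(aa), a mouse embryo medium with amino acids, and each half-embryo was then kept for 72 h (about 96 h of culture in all, 4 dpc) in GM501 (n = 10, embryos 9 to 18) or SAGE 1-step (n = 10, their sisters), which are media of human assisted reproduction, or in KSOM(aa) (n = 16, both half-embryos of embryos 1 to 8). Each blastocyst was hybridized to 1 array.

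Long non-coding RNAs are transcripts without a protein product. They are grouped by where they lie: intergenic (linc), on the opposite strand of a gene (antisense), or on the strand of a gene but outside its exons, mostly in introns (sense no exonic). Signal on the strand of a gene inside an intron can come from an independent transcript, from unspliced precursor RNA or from retained introns, and an array probe does not separate these. Small RNAs of oocytes include piRNAs, which silence transposons, and processed pseudogenes are copies of messenger RNAs that were inserted back into the genome and are often nearly identical to their parent.

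To show what such a member looks like, the sequence around the annotated start of 4 of them is given. Of the members on chromosomes with RefSeq genes, 1062 (4.13%) have their 5′ end inside the window of 250 bases before to 50 bases after a RefSeq start on the same strand, and 682 (2.65%) inside such a window on the opposite strand. Among those in a same-strand window, 12 detected members considered here were higher in GM501 or SAGE 1-step than in KSOM(aa) in both scalings used below, and the 4 with the largest difference are shown. They were chosen after their values were seen. The sequences are those of RefSeq on GRCm38.p6, read 5′ to 3′ on the strand of the gene, and capitals mark the bases that belong to the transcript cluster.
TC1100002719.mm.1, in Gm51894, minus strand, chr11:52358533-52358832: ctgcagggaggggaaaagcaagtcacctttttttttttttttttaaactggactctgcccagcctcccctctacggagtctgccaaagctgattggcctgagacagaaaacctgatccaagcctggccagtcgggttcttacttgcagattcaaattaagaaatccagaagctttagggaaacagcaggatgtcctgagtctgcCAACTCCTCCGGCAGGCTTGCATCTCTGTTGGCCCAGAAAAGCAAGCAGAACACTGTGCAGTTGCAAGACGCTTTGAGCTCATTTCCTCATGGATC
TC1500002149.mm.1, in Gm32885, minus strand, chr15:97167195-97167494: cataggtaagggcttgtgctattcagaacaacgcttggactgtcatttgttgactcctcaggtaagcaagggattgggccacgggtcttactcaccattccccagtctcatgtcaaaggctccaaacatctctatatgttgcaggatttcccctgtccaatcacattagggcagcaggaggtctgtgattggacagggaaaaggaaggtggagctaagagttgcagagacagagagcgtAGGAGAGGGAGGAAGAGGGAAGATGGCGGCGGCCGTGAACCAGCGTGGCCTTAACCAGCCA
TC0900001224.mm.1, in Gm33302, plus strand, chr9:97275489-97275788: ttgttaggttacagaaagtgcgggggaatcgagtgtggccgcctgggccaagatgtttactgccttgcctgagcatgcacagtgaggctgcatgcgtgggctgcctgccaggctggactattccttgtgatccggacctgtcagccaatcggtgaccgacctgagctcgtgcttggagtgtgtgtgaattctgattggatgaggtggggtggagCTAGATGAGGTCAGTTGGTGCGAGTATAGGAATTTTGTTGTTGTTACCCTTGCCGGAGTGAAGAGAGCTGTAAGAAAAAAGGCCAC
TC1000001123.mm.1, in Gm32468, plus strand, chr10:93083986-93084285: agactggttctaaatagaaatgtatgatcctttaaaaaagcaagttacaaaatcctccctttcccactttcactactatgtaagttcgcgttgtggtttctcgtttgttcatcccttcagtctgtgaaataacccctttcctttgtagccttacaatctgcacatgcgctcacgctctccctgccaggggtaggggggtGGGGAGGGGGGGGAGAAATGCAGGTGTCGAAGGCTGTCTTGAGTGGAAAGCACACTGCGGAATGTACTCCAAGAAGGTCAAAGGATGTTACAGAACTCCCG
All 4 are linc members of 692 to 9246 bp whose first 61 to 101 bases lie in the window. On both strands, the 4 windows hold 1, 3, 2 and 0 copies of the CCAAT box (CCAAT), and none holds a TATA box (TATAAA) or a GC box (GGGCGG). Over all 32851 RefSeq start windows, 37.4% hold a CCAAT box, 13.6% a TATA box and 35.7% a GC box. The 1147 windows that hold the 5′ end of a same-strand member had 38.9%, 13.5% and 15.1%, with 4 CpG dinucleotides at the median against 7 over all windows. The 713 opposite-strand windows had 38.8%, 6.59% and 57.1%, with 22 CpG dinucleotides. A motif match is a description of the letters only.

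Members on chromosome 18 were not considered for this display. TC1500002149.mm.1 had the clearest values of the 4. Its log2 signal ran between 9.73 and 12.74 in GM501 (median 11.92), between 10.16 and 13.01 in SAGE 1-step (median 11.96) and between 7.66 and 11.27 in KSOM(aa) (median 9.99). The groups overlap, because embryos 15 to 18 (9.73 to 11.60) lie within reach of KSOM(aa) whereas embryos 9 to 14 (11.84 to 13.01) lie above all other arrays. By limma it exceeded KSOM(aa) by 1.89 ± 0.39 with GM501 (adjusted p = 0.00447) and by 1.83 ± 0.39 with SAGE 1-step (adjusted p = 0.00435) on the log2 scale (± SE here and for all differences below), and in embryos 15 to 18 alone they were 0.83 and 0.58 (adjusted p = 0.312 and 0.604). TC1100002719.mm.1 passed in SAGE 1-step only (1.99, adjusted p = 0.00969), and TC0900001224.mm.1 (1.63, adjusted p = 0.0273) and TC1000001123.mm.1 (1.14, adjusted p = 0.0164) passed in GM501 only. In embryos 15 to 18 alone, these 3 members did not pass in either medium (differences from -0.14 to 0.85).

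Nearly all members are annotated as non-coding. The Group column of the table calls 25684 of them NonCoding, 64 Coding, 21 Multiple_Complex, 15 Precursor_microRNA, 9 Pseudogene and 2 Small_RNA. NONCODE, the catalogue behind most descriptions, places 13034 in the linc class, 8229 in sense no exonic, 3329 in antisense, 7 in exonic and 3 in several classes, and 1193 have no class. By place, 24821 lie on autosomes, 793 on X, 76 on Y, 4 on the mitochondrial genome and 101 on unplaced contigs. The median member is 2311 bp long and read by 30 probes. On GRCm38.p6, 73.2% of the members overlap a RefSeq gene (895 a pseudogene, 13417 a protein-coding gene but no pseudogene, and 4394 a lncRNA gene but neither of these).

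Detection was set by olfactory and vomeronasal receptor clusters, genes of sensory neurons: a cluster counted as detected in a medium when 50% or more of its arrays lay above the receptors' percentile 90, and overall when this held in any medium. This held for 8975 members (34.8%) and for 22809 clusters with a symbol (56.8%), with median log2 signals of 4.49 and 5.15 over the 36 arrays. Levels of different clusters also depend on their probes. Detection was 30.4% in the linc class, 39.8% in sense no exonic, 27.2% in antisense and 69.2% without a class, where the median signal was 6.46. Of the Group values, Coding had 53.1% detected, 14 of 15 precursor microRNAs were detected at a median log2 signal of 11.45, and 7 of 9 pseudogenes were. Across the autosomes the detected share ran between 31.3% (chromosome 16) and 39.3% (chromosome 4) and the median signal between 4.38 and 4.55.

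The 10 members of highest signal, an order that depends on the probes as well as on the RNA, were short (57 to 523 bp) and lay mostly in pseudogenes. TC0800002549.mm.1 (95 bp inside Tbc1d9) led with a mean log2 signal of 19.02. It had 18.92 to 19.09 in GM501, 18.87 to 19.09 in SAGE 1-step and 18.79 to 19.17 in KSOM(aa), so that the groups overlap almost fully. TC0600002513.mm.1 (in Gm6210), TC1400002532.mm.1 (in Gm7232), TC0100000357.mm.1 (in Gm8337) and TC0100000355.mm.1 (in Gm8326), which are 57 to 61 bp long and share 1 cDNA clone in their description, had means of 18.96, 18.89, 18.72 and 18.61. The others were TC0200000731.mm.1 (in Gm13456, 18.76), TC0100002078.mm.1 (1019 bp from Gm10925, 18.70), TC0800002296.mm.1 (in Gm7432 and Sh3rf1, 18.56), TC1700001823.mm.1 (in Rps2-ps8, a copy of the gene of a small-subunit ribosomal protein, 18.53) and TC0700003630.mm.1. The last one is annotated as a B1 element, a short interspersed repeat present in many copies in the mouse genome, and had 18.58. RefSeq pseudogenes overlapped 7 of the 10 highest members, 27 of the 100 highest, 139 of the 1000 highest (13.9%) and 3.48% of all members. Probes in such copies can read the parent gene or the other copies too.

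Some members cannot be told apart. Identical signals on all 36 arrays were found in 107 groups that hold 518 members, the largest with 63 members on several chromosomes, and 12 members were identical to a cluster with a symbol. Of the 518, 407 are described as oocyte small RNAs (piRNAs or clustered small RNAs). In all, 579 members carry such a description; 520 were detected, at a median log2 signal of 8.62, with a median length of 37 bp and 13 probes.

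The samples differed in ways that bear on every result. The scan names put all KSOM(aa) arrays in 1 array set and all GM501 and SAGE 1-step arrays in another, so that the medium and the array set cannot be told apart where KSOM(aa) is compared. Within the second set, embryos 9 to 14 stood apart from embryos 15 to 18, as earlier results of these data had shown: the 18S RNA (Rn18s) was at 16.52 ± 0.28 (SD, n = 12) against 18.03 ± 0.13 (SD, n = 8), and Gapdh at 14.85 ± 0.36 against 15.74 ± 0.12, with no overlap. The median log2 signal of the members was 4.66 ± 0.16 in embryos 9 to 14 and 4.32 ± 0.19 in embryos 15 to 18, where half-embryo 16b in SAGE 1-step was the highest at 4.77. Of the lineage markers, 8 of 8 epiblast, 4 of 5 primitive endoderm and 7 of 7 trophectoderm genes measured were detected, and 3 of 8 cumulus and granulosa genes, whose mean log2 signal was 4.45 in GM501, 4.48 in SAGE 1-step and 4.35 in KSOM(aa). The mean log2 signal was 12.13 in GM501 (11.84 to 12.57), 12.17 in SAGE 1-step (11.38 to 12.79) and 12.84 in KSOM(aa) (12.42 to 13.23) for the trophectoderm genes, 7.84, 7.40 and 7.83 for the epiblast genes, and 7.98, 7.92 and 7.91 for the primitive endoderm genes. The part of these markers in the results was not tested. In a whole blastocyst, fewer cells of a type and less RNA per cell cannot be told apart.

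**Figure D1:**
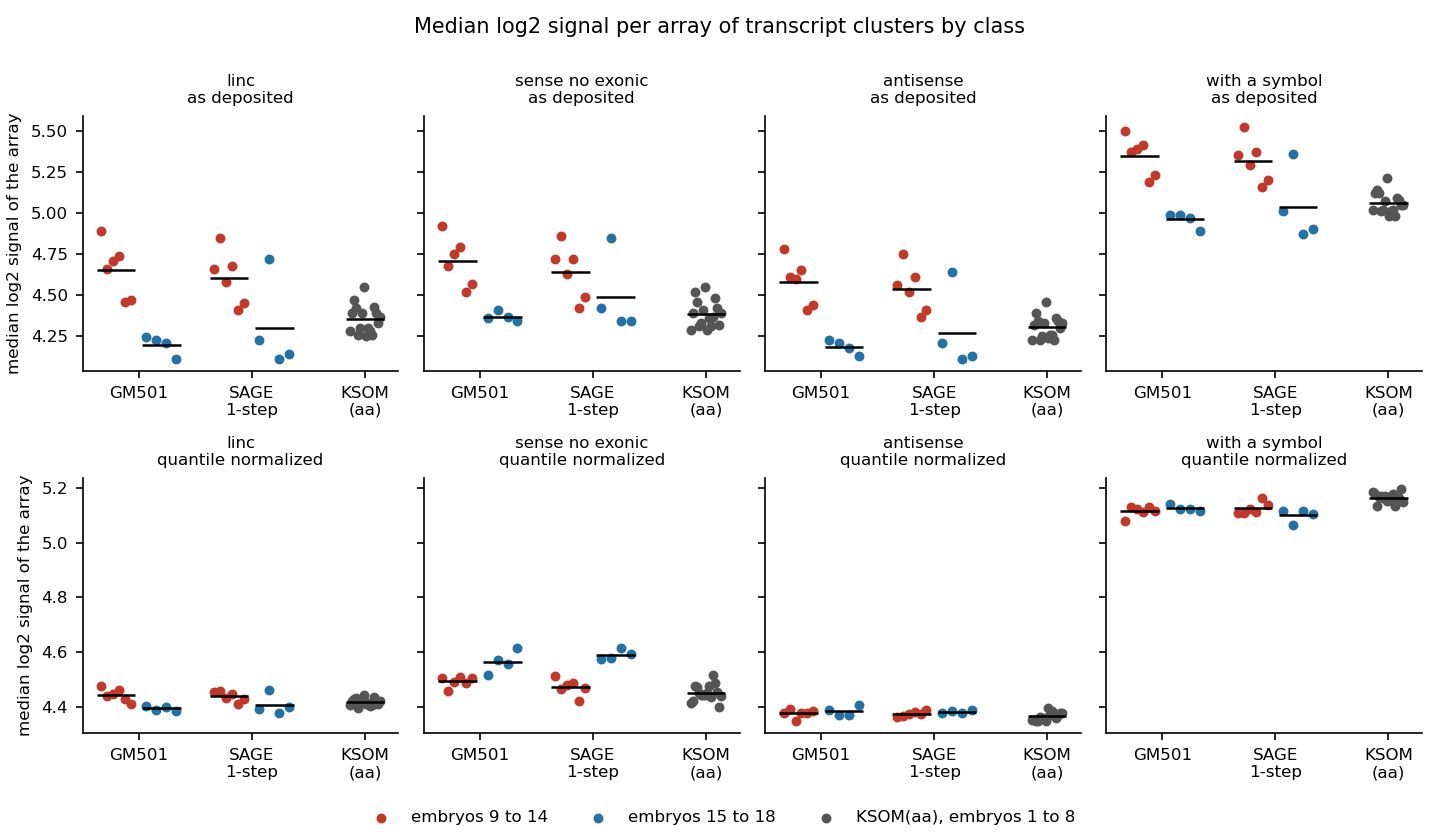
Median log2 signal of each array (y axis) for linc, sense no exonic and antisense members and for clusters with a symbol, as deposited (top) and quantile normalized (bottom), by medium (x axis). Points are single half-embryos (n = 10 in GM501, 10 in SAGE 1-step, 16 in KSOM(aa)), black lines are means of the points below or above them, and the 2 rows have different y scales. As deposited, the members of embryos 9 to 14 average 4.66 and those of KSOM(aa) 4.38, and after quantile normalization the sense no exonic members of embryos 15 to 18 lie at 4.52 to 4.62, against 4.40 to 4.52 in KSOM(aa).

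The first question was whether members differ between half-embryos in GM501 and in KSOM(aa). They did, nearly always upwards: by limma, fitted to all clusters with each half-embryo as 1 sample and adjusted over all of them at 0.05, 720 members were higher in GM501 and 53 lower. These 773 are 3.00% of the members, less than the 4.85% called over all clusters (2.97% higher, 1.88% lower). The upward split is not particular to members. Clusters with a symbol whose Group is NonCoding had 220 higher and 19 lower (3.96% called), at a median log2 signal of 4.57. The direction depended on the scaling. Quantile normalization, which gives all arrays the same distribution, left 517 members higher and 254 lower (2.16% and 4.38% of all clusters, 6.55% together), and centring each array on its median gave 453 higher and 509 lower (5.98% of all clusters). Scaled to Actb, Gapdh and Hprt, 22123 were higher and 15 lower. In GM501 these genes were themselves below KSOM(aa), at means of 16.51 against 17.26 (Actb), 15.23 against 15.74 (Gapdh) and 15.04 against 15.36 (Hprt). Subtracting them adds to the difference of every cluster. The median difference was 0.13 over the members and 0.11 over all clusters as deposited, and 0.02 and -0.0026 after quantile normalization.

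In SAGE 1-step, 1063 members were higher than in KSOM(aa) and 63 lower, 4.37% of the members against 6.47% of all clusters (4.03% higher, 2.44% lower). Clusters with a symbol whose Group is NonCoding had 278 higher and 45 lower here (5.35% called). Quantile normalization left 652 members higher and 297 lower (2.59% and 5.03% of all clusters, 7.63% together), and centring on the median 622 higher and 674 lower (7.89% of all clusters). The median difference was 0.14 over the members and 0.11 over all clusters, and 0.02 and -0.003 after quantile normalization. The 2 comparisons share the KSOM(aa) arrays. With the embryo as a random block, since sisters share an embryo, the counts were 413 in GM501 (380 higher, 33 lower; 3.23% of all clusters) and 624 in SAGE 1-step (587 higher, 37 lower; 4.37%), and averaging the sisters in KSOM(aa) left 85 and 149.

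The calls depended on the embryo set. With only embryos 9 to 14 in GM501 and SAGE 1-step, 11375 and 8085 members were called (48.1% and 39.1% of all clusters). With only embryos 15 to 18, 80 members were higher and 46 lower in GM501 (0.52% of all clusters called). In SAGE 1-step, 207 were then higher and 33 lower (0.778%). After quantile normalization of the arrays used, the 15 to 18 counts were 105 higher and 47 lower in GM501 (0.611% of all clusters), and 267 and 57 in SAGE 1-step (1.43%). Fewer arrays enter these fits, and the part of array number in the lower counts was not tested.

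The counts were taken by class as well, beside 4.85% called over all clusters in GM501 and 6.47% in SAGE 1-step. Of the sense no exonic members, 385 were higher in GM501 and 1 lower (4.69% called), and 509 were higher in SAGE 1-step and 1 lower (6.20%). In the linc class the counts were 208 and 35 in GM501 (1.86%) and 369 and 43 in SAGE 1-step (3.16%), and in antisense 97 and 6 (3.09%) and 141 and 4 (4.36%). Members without a class had 29 higher and 11 lower in GM501, and 40 and 15 in SAGE 1-step. After quantile normalization the sense no exonic members still had 231 higher and 27 lower in GM501 and 284 and 39 in SAGE 1-step, while the linc members had 169 and 175, and 246 and 188. Centred on the array median, sense no exonic members had 217 higher and 93 lower in GM501 and 279 and 136 in SAGE 1-step, and linc members 143 and 314, and 225 and 395. The difference between classes was not tested.

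With embryos 15 to 18 alone, 64 sense no exonic members were higher in GM501 and 3 lower, and 166 higher in SAGE 1-step and 2 lower (0.814% and 2.04% called). The linc members then had 10 higher and 33 lower in GM501, and 29 and 23 in SAGE 1-step (0.33% and 0.399%). Over all clusters 0.52% and 0.778% were called. The 2 lone sense no exonic members called lower over all embryos were named after their values were seen: TC0500000158.mm.1 inside Magi2 (-0.31 ± 0.09 in GM501, adjusted p = 0.0416) and TC0500000088.mm.1 inside Sema3a (-0.33 ± 0.10 in SAGE 1-step, adjusted p = 0.0405). Both had mean log2 signals of 4.30 or less in every medium, near the bottom of the scale.

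**Figure D2:**
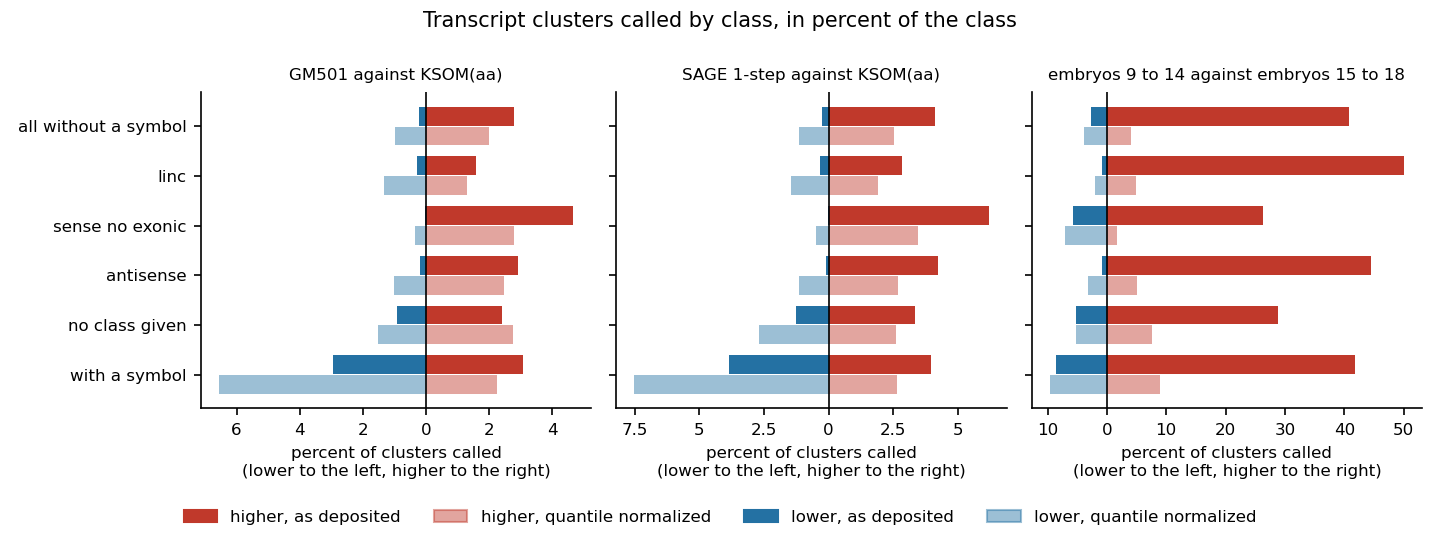
Percent of the clusters of each class called higher (red, to the right) or lower (blue, to the left) by limma at an adjusted p under 0.05 (x axis; the 3 panels have different scales), as deposited (full colour) and quantile normalized (pale). The sense no exonic members have 4.68% higher and 0.0122% lower in GM501 as deposited, and clusters with a symbol have 3.08% and 2.95%.

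Every autosome held members that were called, where 4.85% of all clusters and 3.00% of the members passed in GM501, and 6.47% and 4.37% in SAGE 1-step. In GM501 the called share ran between 2.31% (chromosome 3) and 3.94% (chromosome 2), and in SAGE 1-step between 2.58% (chromosome 10) and 6.39% (chromosome 19). Over all autosomes, 699 members were higher and 49 lower in GM501, and 1027 and 56 in SAGE 1-step. On X the counts were 19 and 3 in GM501, and 35 and 2 in SAGE 1-step.

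**Figure D3:**
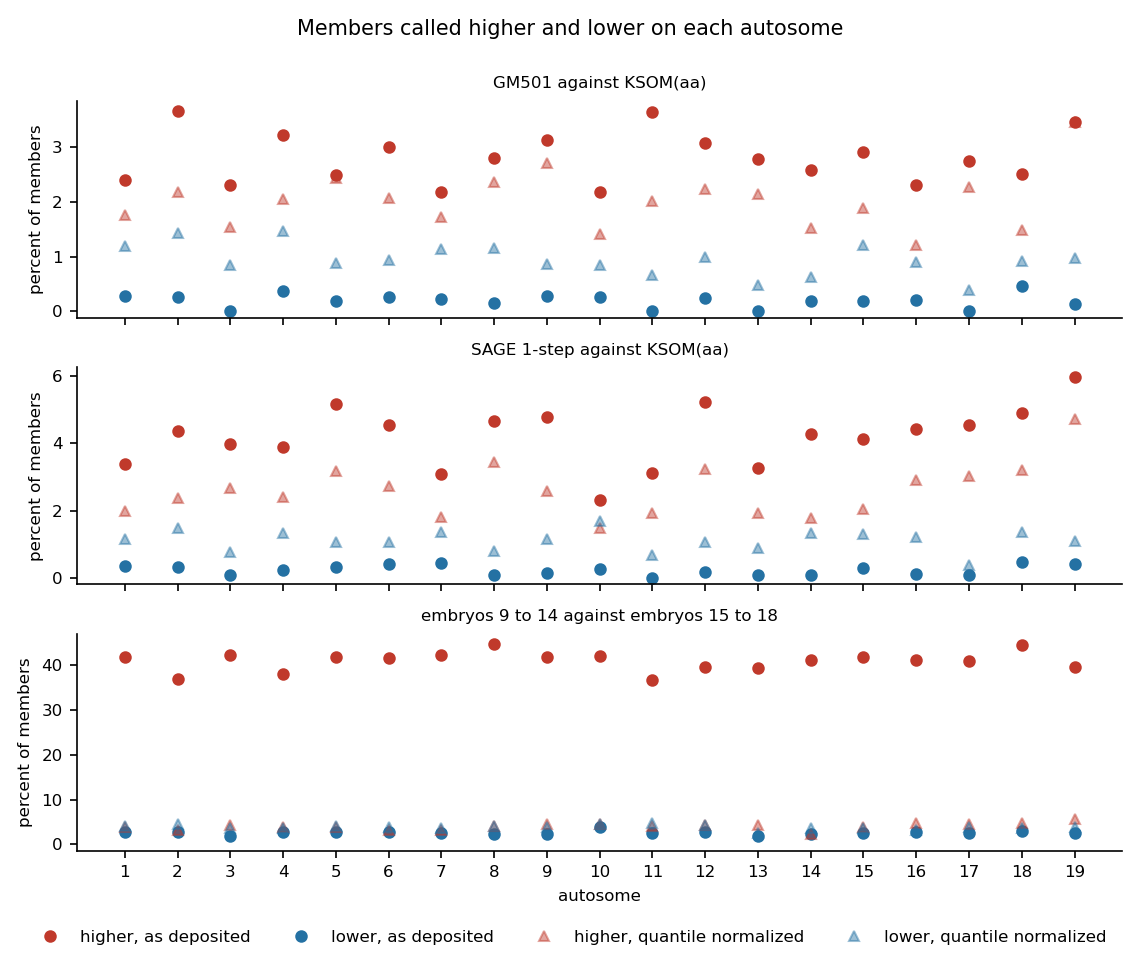
Percent of the members of each autosome (x axis) called higher (red) or lower (blue), as deposited (circles) and quantile normalized (pale triangles), in GM501 against KSOM(aa), SAGE 1-step against KSOM(aa) and embryos 9 to 14 against embryos 15 to 18 (y axes of different scale). As deposited, the higher share exceeds the lower share on all 19 autosomes in each panel.

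The small Group classes held few calls. Of the 64 Coding members, 2 passed in GM501 and 2 in SAGE 1-step, all upwards, namely TC0700001700.mm.1 in both (1.11 ± 0.31 and 1.09 ± 0.31, adjusted p = 0.0305 and 0.0275), TC0900001518.mm.1 inside Dync1li1 in GM501 (0.59 ± 0.15, adjusted p = 0.0187) and TC1100001602.mm.1 in SAGE 1-step (0.48 ± 0.14, adjusted p = 0.0317). The 1 precursor microRNA that passed was TC1300001102.mm.1 in SAGE 1-step (0.44 ± 0.14, adjusted p = 0.0474), and it did not pass after quantile normalization. These members were named after their values were seen. In embryos 15 to 18, TC0700001700.mm.1 had means of 8.00 in GM501 and 7.70 in SAGE 1-step, against 7.78 in KSOM(aa). TC1100001602.mm.1 then had 5.98 in SAGE 1-step against 5.92, and TC0900001518.mm.1 had 4.42 in GM501 against 4.14. Over all embryos TC0900001518.mm.1 had 4.73 in GM501, and both means lay below the median receptor levels of 4.98 and 4.90. The size of its difference is therefore not exact.

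Sense no exonic members could be set beside the gene around them. A single cluster with a symbol on the same strand, here called the host, contained 7897 of the 8229, in 3471 hosts of which 1489 held several such members (up to 32). The median log2 signal was 4.55 over the members and 6.69 over the hosts, which different probes read, so that a member's level cannot be set against its host's. A member was detected in 2844 of 4670 cases (60.9%) where its host was detected and in 278 of 3227 cases (8.61%) where it was not.

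Most hosts did not pass, and this held for the hosts of the called members too. Of the 372 members with 1 host that were higher in GM501, the host was called higher for 34, lower for 14 and not called for 324. The median difference was 1.06 in these members and 0.10 in their 320 hosts, and 361 of the 372 lay above their own host. In SAGE 1-step, the host of 480 such members was higher for 51, lower for 20 and not called for 409, at medians of 1.05 and 0.10, and 463 lay above their host. Over all hosts, 3.28% passed as higher and 4.44% as lower with GM501, at a median difference of 0.06. With SAGE 1-step the shares were 4.38% and 4.81%, at a median of 0.07. Since the members were picked for a call and their hosts were not, their higher median follows in part from the choice, and the difference between member and host was not tested.

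After quantile normalization most hosts were again not called, but the called ones split otherwise, with 10 hosts higher, 16 lower and 198 not called for 224 members in GM501, and 16, 17 and 234 for 267 members in SAGE 1-step. Over all hosts 1.5% were then higher and 8.59% lower with GM501, and 2.16% and 8.93% with SAGE 1-step. Embryos 15 to 18 alone, where 0.98% of all hosts were higher with GM501 and 0.835% with SAGE 1-step, had 3 hosts higher, none lower and 57 not called for 60 members in GM501 (medians 1.68 in members and 0.35 in hosts), and 3, none and 156 for 159 members in SAGE 1-step (1.59 and 0.16).

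**Figure D4:**
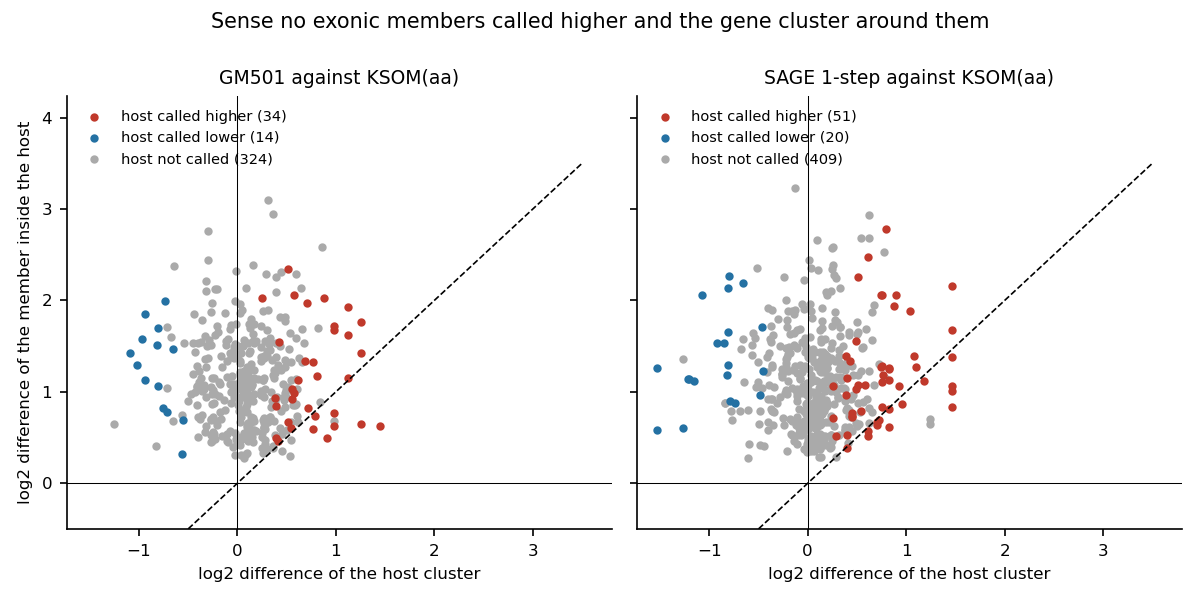
Log2 difference from KSOM(aa) of each sense no exonic member called higher (y axis) against that of the cluster with a symbol that contains it (x axis), in GM501 (372 members, left) and SAGE 1-step (480 members, right), as deposited. Colour gives the call of the host by limma, and the dashed line marks equal differences; 361 and 463 members lie above it.

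The largest rises were read one by one, by a rule that took 5 rises and 5 falls, the largest of those detected members that passed in both scalings. The largest rise in GM501 was that of a pair, TC1000001391.mm.1 and TC1000002967.mm.1, which was also among the 5 largest in SAGE 1-step. Both are oocyte small RNAs of 26 bp on chromosome 10, in Gm32717 and Gm32802, with 2 probes each and identical signals. Their log2 signal ran between 8.62 and 13.84 in GM501 (median 12.46), between 8.78 and 14.23 in SAGE 1-step (median 12.18) and between 6.01 and 10.16 in KSOM(aa) (median 8.18). The lowest arrays in both media were those of embryos 15 to 18 (8.62 to 10.48), which overlap KSOM(aa), and embryos 9 to 14 (11.93 to 14.23) do not. The differences from KSOM(aa) were 3.56 ± 0.64 (adjusted p = 0.00147) and 3.16 ± 0.64 (adjusted p = 0.00283), and in embryos 15 to 18 alone 1.40 and 0.97 (adjusted p = 0.217 and 0.467).

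TC0800002019.mm.1 lies inside Rbpms, the gene of an RNA-binding protein, as a sense no exonic member of 603 bp. It had log2 signals of 10.05 to 14.00 in GM501 (median 12.58), 10.42 to 14.07 in SAGE 1-step (median 11.58) and 7.18 to 12.01 in KSOM(aa) (median 9.09), with an overlap between the top of KSOM(aa) and the bottom of both media. In GM501 it was higher by 2.94 ± 0.55 (adjusted p = 0.00211), in SAGE 1-step by 2.69 ± 0.55 (adjusted p = 0.00316), whereas the Rbpms cluster had 0.36 ± 0.19 and 0.54 ± 0.19 (adjusted p = 0.271 and 0.079). In embryos 15 to 18 alone the member had 1.34 and 1.78 (adjusted p = 0.314 and 0.241).

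TC0400002269.mm.1 lies inside Cpne3, a gene of the copines, which bind phospholipids with calcium. Its signal was 8.48 to 11.50 in GM501 (median 10.37) and 4.47 to 9.34 in KSOM(aa) (median 7.81), so that only the lowest GM501 arrays reach the KSOM(aa) range. The difference in GM501 was 2.76 ± 0.56 (adjusted p = 0.00383), that of SAGE 1-step was 1.75 ± 0.56 (adjusted p = 0.0511), and the Cpne3 cluster had -0.30 ± 0.28 in GM501 (adjusted p = 0.537). TC1700002421.mm.1 inside Ankrd12 had the widest spread of the named rises in GM501, 4.25 to 12.62 (median 10.06) against 3.8 to 9.97 in KSOM(aa) (median 4.84). Its difference of 3.10 ± 0.89 (adjusted p = 0.0364) did not hold with the embryo as a block (adjusted p = 0.0711). It lay above the receptor level in 8 of 10 GM501 and 8 of 16 KSOM(aa) arrays, so that the size of this difference is not exact.

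In SAGE 1-step, the other 3 rises were sense no exonic members too. TC0700004386.mm.1 lies inside Ate1, the gene of an enzyme that adds arginine to proteins, and TC1200000702.mm.1 inside Gphn, the gene of the scaffold protein gephyrin. TC0700004386.mm.1 had 5.57 to 12.30 in SAGE 1-step (median 9.54) and 4.75 to 10.61 in KSOM(aa) (median 5.52), a difference of 3.23 ± 0.71 (adjusted p = 0.00544), which was 3.28 ± 0.82 in embryos 15 to 18 alone (adjusted p = 0.0556). TC1200000702.mm.1 had 5.91 to 10.67 (median 7.98) and 4.10 to 7.57 (median 4.79), a difference of 2.94 ± 0.51 (adjusted p = 0.000808), which was 2.70 ± 0.67 in embryos 15 to 18 (adjusted p = 0.055). It lay above the receptor level in 10 of 10 SAGE 1-step arrays but in 7 of 16 KSOM(aa) arrays, so that its KSOM(aa) level, and with it the size of the difference, is not exact. The Ate1 cluster had -0.13 ± 0.32 (adjusted p = 0.817) and the Gphn cluster 0.62 ± 0.29 (adjusted p = 0.185).

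TC0600000013.mm.1 lies inside Casd1, the gene of an enzyme that acetylates sialic acid. Its signal was 6.25 to 9.95 in SAGE 1-step (median 7.95) and 4.37 to 7.96 in KSOM(aa) (median 4.99), and the upper end of KSOM(aa) overlaps SAGE 1-step. It was higher by 2.78 ± 0.46 (adjusted p = 0.000543). Here the host passed too, with the Casd1 cluster at 0.79 ± 0.21 (adjusted p = 0.0168), but not after quantile normalization (0.66 ± 0.22, adjusted p = 0.0629) or in embryos 15 to 18 alone (1.09 ± 0.28, adjusted p = 0.0678). The member lay above the receptor level in 10 of 16 KSOM(aa) arrays.

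The falls were led by pseudogene and linc members. TC0700002782.mm.1 is a stretch of 254 bp in Usf2-ps1, a pseudogene of the transcription factor gene Usf2. It had 6.44 to 11.64 in GM501 (median 8.60), 6.28 to 11.45 in SAGE 1-step (median 9.77) and 10.07 to 12.82 in KSOM(aa) (median 11.88). Embryos 15 to 18 (10.28 to 11.64) lie in the KSOM(aa) range, and embryos 9 to 14 (6.28 to 10.45) mostly below it. The differences were -2.66 ± 0.55 (adjusted p = 0.00447) and -2.36 ± 0.55 (adjusted p = 0.00843), and the Usf2 cluster, which the probes of the copy may read, had -0.97 ± 0.21 (adjusted p = 0.00605) and -0.85 ± 0.21 (adjusted p = 0.0115).

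TC1800000844.mm.1, a linc member in Gm5823, fell in both media. It had 12.02 to 16.00 in GM501 (median 13.32), 10.92 to 15.68 in SAGE 1-step (median 13.58) and 15.05 to 16.45 in KSOM(aa) (median 16.08). Again the low arrays were those of embryos 9 to 14, at 10.92 to 13.71, and they do not overlap embryos 15 to 18 (13.85 to 16.00). GM501 differed by -2.05 ± 0.45 (adjusted p = 0.00665) and SAGE 1-step by -2.31 ± 0.45 (adjusted p = 0.00219), against -0.33 and -0.82 in embryos 15 to 18 alone (adjusted p = 0.451 and 0.107).

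TC0100001109.mm.1 passed in GM501 in embryos 15 to 18 alone too. This linc member spans 345088 bp, 74036 bp from Actr3, and is read by 30 probes. Its signal was 8.20 to 10.14 in GM501 (median 9.25), 7.79 to 10.68 in SAGE 1-step (median 9.28) and 9.87 to 12.08 in KSOM(aa) (median 11.34), with only the top of both media in the KSOM(aa) range. It was lower by 2.01 ± 0.29 in GM501 (adjusted p = 0.000202), and by less in embryos 15 to 18 alone (-1.71 ± 0.29, adjusted p = 0.00553). In SAGE 1-step it had -1.82 ± 0.29 (adjusted p = 0.00038) over all embryos and -0.91 ± 0.29 (adjusted p = 0.132) in embryos 15 to 18.

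Of the remaining falls, TC0500003276.mm.1 in Gm7774 had -1.52 ± 0.33 in GM501 (adjusted p = 0.00622) and TC1200002298.mm.1, 3791 bp from Syne3, had -1.75 ± 0.52 (adjusted p = 0.0443; 0.0725 with the embryo as a block). In SAGE 1-step, TC0700003532.mm.1, an oocyte small RNA in AU020206 read by 3 probes, had -1.70 ± 0.48 (adjusted p = 0.027; 0.0656 with the embryo as a block). TC0500002759.mm.1, which overlaps Scarb2, had -1.64 ± 0.41 (adjusted p = 0.0139), and it passed in embryos 15 to 18 alone as well (-1.77 ± 0.36, adjusted p = 0.0191).

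**Figure D5:**
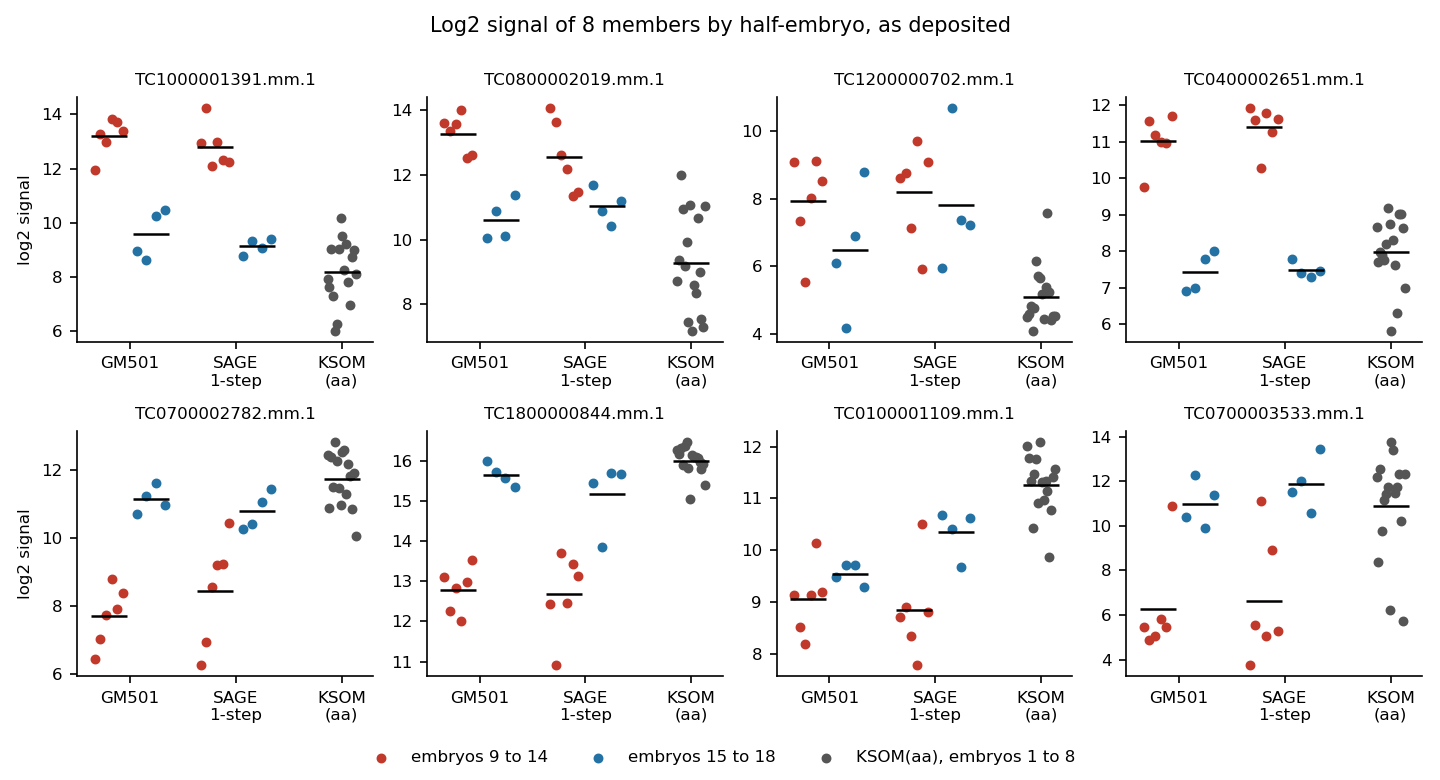
Log2 signal (y axis) of 8 members named in the text in every half-embryo, by medium (x axis) and embryo set (colour), with means as black lines; the panels have different y scales. In TC1000001391.mm.1 the points of embryos 9 to 14 (11.93 to 14.23) lie above all others, in TC1800000844.mm.1 (10.92 to 13.71) below all others.

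GM501 and SAGE 1-step were compared directly, with the sisters of embryos 9 to 18 on both sides. No member passed by limma (0% of all clusters called), with 620 members at an unadjusted p under 0.05, and none passed after quantile normalization (1026 unadjusted), with the embryo as a block (1396 unadjusted) or with the methods' t-test after Benjamini-Hochberg adjustment, which gave 39 members at P under 0.01 (14 higher and 25 lower in GM501). With embryos 15 to 18 alone, 2 sense no exonic members were lower in GM501 (0.00303% of all clusters called). TC0500003340.mm.1 inside Auts2 had 4.81, 4.83, 4.86 and 4.65 in GM501 (embryos 15, 16, 17 and 18) and 6.00, 8.13, 5.99 and 7.27 in the SAGE 1-step sisters (-2.06 ± 0.30, adjusted p = 0.0283), without overlap. TC0600002004.mm.1 inside Copg2 had 5.36, 4.94, 5.34 and 4.80 in GM501 and 6.71, 6.31, 6.92 and 6.72 in SAGE 1-step (-1.56 ± 0.24, adjusted p = 0.0283). Neither passed after quantile normalization, and both were named after their values were seen. By limma no member passed for a difference between the embryo sets in the contrast of the media (1751 at an unadjusted p under 0.05).

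Embryos 9 to 14 were set against embryos 15 to 18. No label gives this division, which was known from earlier results of these same data. A difference was thus expected beforehand, and the counts and adjusted p values below describe its size without testing the division. With the mean of both sisters of each embryo as 1 sample (6 against 4 embryos), 10522 members were higher in embryos 9 to 14 and 675 lower, where 47.6% of all clusters were called (41.4% higher, 6.23% lower) and the median difference was 0.33 over the members and 0.32 over all clusters. Quantile normalization left 1030 members higher and 1004 lower (6.99% and 7.4% of all clusters, 14.4% together), and centring on the median 652 higher and 1405 lower (13.5%). With the GM501 half-embryos only, 11030 members were called, with the SAGE 1-step half-embryos only 1087, and without embryo 15, 17 or 18 the count was 6173, 4832 or 4448. As deposited, 6525 linc members were higher and 117 lower (51.0%), 2167 sense no exonic members were higher and 466 lower (32%), and 1482 antisense members were higher and 29 lower (45.4%).

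The split by class depended on the scaling, and the difference between classes was not tested. After quantile normalization 139 sense no exonic members were higher in embryos 9 to 14 and 585 lower. Linc members had 629 higher and 252 lower, and antisense members 171 and 104. Centred on the median, the counts were 66 higher and 750 lower in sense no exonic and 123 and 162 in antisense, and 394 of 796 linc calls were higher. Within each array, the median of the sense no exonic members exceeded that of the linc members by 0.04 ± 0.02 in embryos 9 to 14 (SD, n = 12, 0.01 to 0.10), by 0.18 ± 0.04 in embryos 15 to 18 (SD, n = 8, 0.12 to 0.23) and by 0.03 ± 0.03 in KSOM(aa) (SD, n = 16, -0.01 to 0.11). This difference is taken within an array, the ranges of the 2 embryo sets do not overlap, and half-embryo 16b lies inside that of embryos 15 to 18. The share of sense no exonic members above the receptor level was 32.9 ± 2.50% in embryos 9 to 14, 40.8 ± 2.71% in embryos 15 to 18 and 30.6 ± 2.70% in KSOM(aa), while that of linc members was 28.2 ± 0.937%, 28.8 ± 1.17% and 26.1 ± 1.11%.

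Hosts were read in the same way between the embryo sets. Of 446 sense no exonic members with 1 host that were lower in embryos 9 to 14, the host was called lower for 203, higher for 30 and not called for 213, with median differences of -1.04 in the members and -0.49 in the 386 hosts. Of 2091 such members that were higher, the host was higher for 1308, lower for 94 and not called for 689. Over all hosts, 28.5% were higher and 20.9% lower. The host was detected for 27.8% of the higher members and for 99.1% of the lower ones. After quantile normalization, the host of 131 higher members was higher for 3, lower for 16 and not called for 112. That of 556 lower members was lower for 207, higher for 20 and not called for 329. Over all hosts 3.77% were then higher and 20.6% lower.

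The members named here were picked as the largest rises and falls between the embryo sets, so that their separation follows in part from the choice. TC0400002651.mm.1, a linc member of 208 bp in Amd-ps4, a pseudogene of an enzyme of polyamine synthesis, had 9.77 to 11.91 in embryos 9 to 14 (median 11.41) and 6.92 to 8.00 in embryos 15 to 18 (median 7.44), without overlap. The difference was 3.76 ± 0.23 (adjusted p = 1.83e-05). The chromosome 10 pair TC1000001391.mm.1 and TC1000002967.mm.1 had 3.63 ± 0.30 (adjusted p = 3.81e-05). A second pair of oocyte small RNAs on that chromosome, TC1000001390.mm.1 in Gm32717 and TC1000001409.mm.1 in Gm9040, shared their signals with 2 more members, at 11.71 to 14.34 in embryos 9 to 14 and 8.58 to 10.92 in embryos 15 to 18, again without overlap (3.36 ± 0.43, adjusted p = 0.000454).

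TC1100003981.mm.1, a linc member in Gm36876, was the brightest of the named falls. It had 11.06 to 13.34 in embryos 9 to 14 (median 12.29) and 14.36 to 16.90 in embryos 15 to 18 (median 16.40), with no overlap and a difference of -3.99 ± 0.34 (adjusted p = 4.32e-05). TC0100000189.mm.1 in Gm6473 had 4.33 to 10.16 (median 7.84) and 10.47 to 11.94 (median 10.94), also without overlap (-3.99 ± 0.65, adjusted p = 0.00181). TC0700003533.mm.1, an oocyte small RNA with 2 probes inside AU020206, had 3.76 to 11.13 (median 5.47) and 9.89 to 13.47 (median 11.44), with some overlap. It fell most, by 5.01 ± 0.74 (adjusted p = 0.00107), and the AU020206 cluster had 0.09 ± 0.31 (adjusted p = 0.82). The member lay above the receptor level in 7 of 10 GM501 and 8 of 10 SAGE 1-step arrays, so that the size of its fall is not exact. TC0700004217.mm.1 (-3.54 ± 0.91, adjusted p = 0.0137) and TC1000001001.mm.1 (-3.62 ± 0.84, adjusted p = 0.00937), the second read by 1 probe, overlapped between the sets. TC1000001001.mm.1 lay above the receptor level in 5 of 10 GM501 and 7 of 10 SAGE 1-step arrays. TC0100000189.mm.1 did so in 9 of 10 and 7 of 10. The sizes of these 2 falls are not exact either.

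Members that overlap a pseudogene, on either strand, and oocyte small RNAs were read as groups. Of the 895 members that overlap a RefSeq pseudogene, 51.8% were detected; GM501 had 52 higher and 15 lower, SAGE 1-step had 48 and 17, and embryos 9 to 14 had 395 and 57. These are 7.49%, 7.26% and 50.5% of them, against 4.85%, 6.47% and 47.6% of all clusters. After quantile normalization the splits were 40 and 23, 33 and 35, and 102 and 66. For 50 members the name of the overlapped pseudogene gives 1 measured parent gene. Some of them are long, with 1 over chr16:79943345-81079049 at Fkbp1a-ps3, so that their probes need not lie in the copy. Of the 50, 4 were called in GM501, and the parent was called the same way for 2 and the other way for none. In SAGE 1-step 7 were called, with the parent called the same way for 1 and the other way for none, and between the embryo sets 24, with 7 and 5. Of the 579 oocyte small RNAs, GM501 had 14 higher and 3 lower and SAGE 1-step had 14 and 6 (2.94% and 3.45% called). Embryos 9 to 14 had 72 and 34 (18.3%). Their median difference between the embryo sets was -0.44, against 0.33 for all members, although more were called higher than lower. Of these small RNAs, 407 share identical signals with other members, so that the same signals enter the median and the counts repeatedly.

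Sisters were set against unrelated half-embryos. Over the 8975 detected members, the signals of the GM501 and SAGE 1-step sisters, centred on the mean of their medium and embryo set, had a mean correlation of 0.24 (10 pairs), against -0.06 for 42 pairs of half-embryos of different embryos in the same set. In KSOM(aa) the sisters had 0.05 (8 pairs) and pairs of other embryos -0.07 (112 pairs). For sense no exonic members the values were 0.04 and -0.01 between the other media and -0.03 and -0.07 in KSOM(aa), and for linc members 0.17 and -0.04, and 0.06 and -0.08. Clusters with a symbol had 0.23 and -0.06, and 0.14 and -0.08. Centring on the group mean by itself pulls the values of pairs of other embryos downwards. Those values are therefore no independent baseline for the sisters. These correlations run across clusters of the same arrays, which are no independent replicates, and have no test.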

How the data were processed

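Per the labels and the methods of the study, RNA of single blastocysts was extracted with a microprep kit without a DNase step, amplified with the WT Pico kit and hybridized to Mouse Transcriptome Arrays (MTA 1.0), 1 half-embryo per array. The authors processed the arrays with Affymetrix Expression Console, and the deposited values are log2 signals after SST-RMA, with annotation on mm10; which arrays were normalized together is not given in the sources used here. In 1 cluster the deposited column holds a genome position in place of a signal, so that the column can only be read as a score there; that cluster was left out. Log2 signals ran from 2.09 to 19.17. Arrays give no depth, and the number of half-embryos limits the precision, with a median SE over the members of 0.133 for each medium against KSOM(aa) and 0.152 between the embryo sets.

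Members and lists were chosen with earlier results of these data known. All 65955 clusters were fitted with limma 3.58.1 in R 4.3.3 (lmFit and eBayes with a trend), with Benjamini-Hochberg adjustment over all of them at 0.05, as deposited and after quantile normalization. Media were compared over half-embryos, and embryo sets over the means of sisters. Half-embryos are separate samples, but sisters come from the same embryo, so that the embryo number pairs them (consensus correlation 0.3397 in the comparison of media). Named members are the 5 largest rises and the 5 largest falls per comparison among detected members called in the same direction in both scalings, and the 10 highest levels; hosts and parent genes are named beside them. Alternatives were other scalings, filters, blocks, arrays left out and the methods' t-test. Tables were joined in Python 3.11.15 with pandas 2.3.3, and figures were drawn with matplotlib 3.10.9.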

Additional observations from a re-analysis of the deposited data

Results flagged for a closer look

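Of 82 groups of half-embryos looked at over the named members, 2 held a sample far from the others, and chance alone flags about 1 in 20 groups. In TC0800002296.mm.1, half-embryo 10b in SAGE 1-step had a log2 signal of 18.13, where the nearest other half-embryo had 18.40. In TC1700001823.mm.1 the same half-embryo had 18.11, against 18.38 in the nearest. Both members are among the 10 highest levels.

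Also listed is the count of members that differed between embryos 9 to 14 and embryos 15 to 18 within the same media, 11197 by limma. This division was known from earlier results of these data.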

How the results depend on the processing

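The counts of members called, 773 in GM501 and 1126 in SAGE 1-step against KSOM(aa) and 11197 between the embryo sets, depended strongly on the setting, and the cause was not tested. Scaled to Actb, Gapdh and Hprt they were 22138, 23671 and 22243, and with array weights 1900, 4140 and 17278. With the embryo as a random block they were 413 and 624 for the media, with the sisters in KSOM(aa) averaged 85 and 149, and with embryos 1 to 5 only in KSOM(aa) 179 and 318, where fewer samples enter. The methods' t-test at P under 0.01, unadjusted, gave 1917, 2321 and, for GM501 against SAGE 1-step, 39. With embryos 9 to 14 only, the counts were 11375 in GM501 and 8085 in SAGE 1-step, and 2993 and 2184 after quantile normalization. With embryos 15 to 18 only, they were 126 and 240, and 152 and 324 after quantile normalization, with 2 between GM501 and SAGE 1-step. Between the embryo sets, quantile normalization gave 2034, centring on the median 2057, detected clusters only 3158 and the SAGE 1-step half-embryos only 1087; leaving out 1 embryo at a time gave 4448 to 14870. The fits that pair quantile normalization with an embryo set, and the count with identical members taken once, were chosen after seeing the data. Where no share over all clusters is given for a setting, its count says nothing particular to the members.

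In the comparison a member was named for, no difference turned its sign under the alternatives run. In the medium they were not named for, TC0400002269.mm.1 had 1.75 in SAGE 1-step and -0.08 with embryos 15 to 18 only, and TC1200002298.mm.1 had -0.35 in SAGE 1-step and 0.10 with embryos 9 to 14 only. Of the 20 named differences from KSOM(aa), 18 did not pass with embryos 15 to 18 only (16 after quantile normalization). With the sisters in KSOM(aa) averaged 9 did not pass, with embryos 1 to 5 only 4, and with the embryo as a block 3. A member named in both media counts in each. Quantile normalization, on which the choice of members rests, and centring lost none. The block changed no call between GM501 and SAGE 1-step. Of the members, 34.8% lay above the receptor level used for detection, and differences of the others rest on signals at that level or below it.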
